A study of Mus musculus with 3 samples.

Results

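The 9 long noncoding RNA genes described here are Malat1 and Neat1, whose RNAs stay in the nucleus, and 7 host genes of small nucleolar RNAs (snoRNAs): Gas5, Snhg1, Snhg3, Snhg5, Snhg6, Snhg8 and Snhg12. They were chosen by gene symbol, and each symbol was found on 1 of the 24421 gene lines of the count files. The cells were SB28, a mouse glioma line that grows as a transplantable brain tumour and that came from a tumour started by oncogenes carried on a transposon. All 3 libraries were of this line, replicates 1, 2 and 3, on a C57BL/6 background with brain as the source; the labels give no treatment, passage or control group, and do not say whether the replicates were separate cultures. SDs and p-values therefore measure only the spread between these libraries, which may be technical.

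Malat1 is a long RNA of nuclear speckles, the bodies that store splicing factors. Neat1 builds paraspeckles, another kind of nuclear body, around its long transcript, while its short transcript is dispensable for them. Neither the long Neat1 RNA nor Malat1 ends in an ordinary poly(A) tail: RNase P cuts the precursor, and the new end is held in a triple helix of genome-encoded U-rich and A-rich stretches. The snoRNA host genes work differently. Their introns carry snoRNAs, which guide methylation and pseudouridylation of ribosomal RNA, and the spliced exons that are left are often degraded by nonsense-mediated decay once ribosomes engage them. Many host genes begin with a run of pyrimidines, the terminal oligopyrimidine (TOP) start that they share with ribosomal protein mRNAs.

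The gene counts summed to 36019009 in replicate 1, 28990128 in replicate 2 and 32632858 in replicate 3. Of 14 markers used to check the label, the progenitor and glioma genes Vim, Nes and Sox2 were detected in every library, at means of 5404, 427 and 113 counts per 1000000 gene counts (CPM). The glial, neuronal and leukocyte genes Gfap, Aqp4, Olig2, Rbfox3, Aif1 and Cd3e had 0 counts, and Sox10, Snap25 and Ptprc had at most 15 in any library. Of the endothelial genes, Pecam1 had 4, 2 and 0 counts, while Cdh5 was at 351 CPM. Replicate 3 stood apart from the others. A chi-square test against counting noise called 64.1% of genes between replicates 1 and 3 and 62.8% between replicates 2 and 3, but 1.89% between replicates 1 and 2, where the mean chi-square per gene was still 2.23 against 1 for pure counting noise. Reads assigned to no annotated feature numbered 6.12, 6.21 and 7.89 per 100 gene counts in replicates 1, 2 and 3. Whether reads in introns are among them is not given in the sources used here. Their part in the results below was not tested. Results are given with and without replicate 3 where it changes them.

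The annotated 3′ regions of Malat1 and of the long Neat1 transcript are shown first, because they are the part of these RNAs that stands in for a tail. A search of the last 500 bases of Malat1 and the last 200 of the long Neat1 transcript for stretches of at least 11 identical bases found 3, in the same order in both RNAs: 2 U-rich stretches of 13 and 16 bases and an A-rich stretch of 11 bases. They are in capitals below. In the long Neat1 transcript the A-rich stretch is the annotated end, and in Malat1 it lies 292 bases before the annotated end, next to the start of the tRNA-like piece that RNase P releases. The short Neat1 transcript, shown last, ends shortly after the letters AATAAA, the standard polyadenylation signal, in capitals. Sequences are from GENCODE M21 on GRCm38, in DNA letters.
Malat1 3′ region, chr19:5795922-5796070, minus strand: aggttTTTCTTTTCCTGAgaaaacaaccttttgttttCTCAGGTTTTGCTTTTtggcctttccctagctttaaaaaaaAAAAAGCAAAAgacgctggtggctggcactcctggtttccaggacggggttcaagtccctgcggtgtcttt
Neat1 long transcript 3′ end, chr19:5824708-5824802, minus strand: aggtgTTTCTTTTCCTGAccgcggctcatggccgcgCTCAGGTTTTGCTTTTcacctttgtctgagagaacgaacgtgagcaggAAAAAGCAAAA
Neat1 short transcript 3′ end, chr19:5842307-5842366, minus strand: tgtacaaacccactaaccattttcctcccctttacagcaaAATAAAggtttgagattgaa

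The start regions of the host genes are shown because the start of a transcript is what defines a TOP gene. RefSeq promoter sequences (GRCm38.p6) were at hand for 7 of the 9 genes; Neat1 and Snhg6 had none. Each line runs from 50 bases before the annotated start to 35 bases from it on, so the transcript begins at base 51. Capitals mark C followed by at least 4 C or T between 10 bases before and 25 bases after the start, and the letters TATA between 45 and 15 bases before it. The pyrimidine run was searched on the transcribed strand; TATA reads the same on both strands. The motifs were chosen after the windows were seen, and a match is a description, not a mapped start.
Gas5, second annotated start, chr1:161035116-161035200, plus strand: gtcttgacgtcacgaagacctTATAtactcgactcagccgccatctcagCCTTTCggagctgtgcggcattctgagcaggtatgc
Snhg8, chr3:123508302-123508386, minus strand: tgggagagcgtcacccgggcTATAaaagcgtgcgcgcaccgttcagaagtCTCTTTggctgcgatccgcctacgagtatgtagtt
Snhg12, chr4:132308628-132308712, plus strand: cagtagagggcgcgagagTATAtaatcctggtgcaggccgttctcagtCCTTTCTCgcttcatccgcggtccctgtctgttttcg
Snhg5, chr9:88522863-88522947, minus strand: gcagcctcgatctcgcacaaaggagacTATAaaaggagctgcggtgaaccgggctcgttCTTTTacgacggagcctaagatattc
Snhg1, chr19:8723437-8723521, plus strand: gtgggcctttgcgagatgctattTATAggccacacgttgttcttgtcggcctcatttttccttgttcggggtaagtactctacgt
Snhg3, chr4:132353652-132353736, minus strand: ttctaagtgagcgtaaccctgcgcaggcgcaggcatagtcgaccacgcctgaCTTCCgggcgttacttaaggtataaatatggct
Malat1, chr19:5802638-5802722, minus strand: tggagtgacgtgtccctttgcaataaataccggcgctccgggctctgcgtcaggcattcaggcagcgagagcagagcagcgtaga

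Of the 6 host genes with a window, 5 held the pyrimidine run (Gas5, Snhg3, Snhg5, Snhg8 and Snhg12), as did 40% of all 32851 promoter windows. Snhg1 had no match to those letters, although its longest run of C and T in the searched stretch was 9 bases. TATA stood before the start of 5 host genes (Gas5, Snhg1, Snhg5, Snhg8 and Snhg12), against 6.72% of all promoter windows. Counted by window, with Malat1 and both Gas5 starts included, each motif was in 5 of 8 windows. Malat1 had neither motif, and the first of the 2 annotated Gas5 starts, not shown, had neither.

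All 9 genes reached 1 CPM in every library, the limit for calling a gene detected, where 46.6% of all gene lines and 10.7% of the 1821 lines with a long noncoding biotype were. Together they took 452, 465 and 744 CPM in replicates 1, 2 and 3, or 0.0452%, 0.0465% and 0.0744% of the counts. In a bulk sample, fewer cells that make an RNA and less RNA per cell cannot be told apart. Without regard to length, Malat1 gave 21.3%, 23.0% and 33.8% of the counts of the 9 genes in replicates 1, 2 and 3, and Neat1 34.7%, 33.7% and 29.7%. The larger share was thus Neat1's in replicates 1 and 2 and Malat1's in replicate 3.

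Neat1 lies at chr19:5824708-5845478 on the minus strand, 22036 bases from Malat1. It had 157, 157 and 221 CPM in replicates 1, 2 and 3, a mean of 178 ± 37.0 (SD, n = 3) and 157 without replicate 3. The first 2 values lay within 1 CPM of each other and replicate 3 was 1.41-fold above each. Such a level is not corrected for the length of the gene.

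Malat1 lies at chr19:5795690-5802672, also on the minus strand, as 1 exon block of 6983 bases. It had 96.5, 107 and 251 CPM in replicates 1, 2 and 3, a mean of 152 ± 86.6 (SD, n = 3) and 102 without replicate 3. Replicate 3 was 2.61-fold above replicate 1 and 2.35-fold above replicate 2, the widest spread of the 9 genes. The values of replicates 1 and 2 lay close together and replicate 3 far above both.

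**Figure D1:**
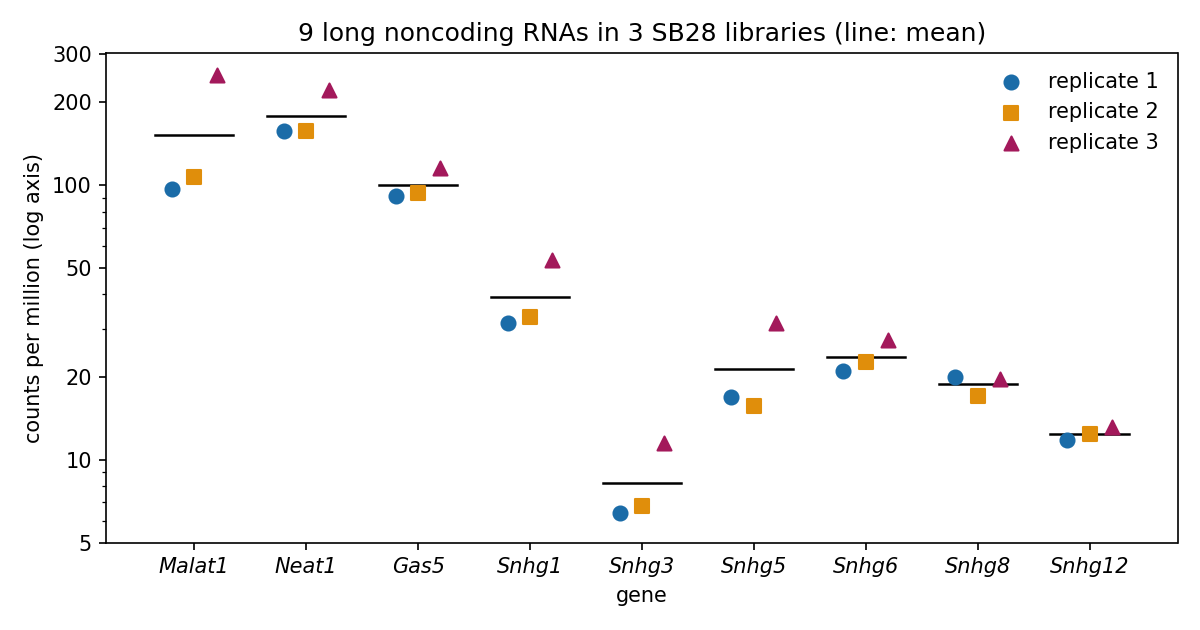
CPM of the 9 genes in each of the 3 SB28 libraries, on a log axis, with a line at the mean. Replicate 3 is the highest library for 8 of the 9 genes and for 44.7% of all tested genes. Malat1 has the widest gap, at 251 CPM in replicate 3 and 96.5 and 107 CPM in the other libraries.

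Gas5, named for its rise in growth-arrested cells and host to 9 annotated snoRNA loci, lies at chr1:161034422-161038539 on the plus strand. It had 91.4, 93.6 and 115 CPM in replicates 1, 2 and 3, a mean of 99.99 ± 13.0 (SD, n = 3) and 92.5 without replicate 3. Snhg1, host to 8 loci at chr19:8723475-8726443 on the plus strand, had 31.3, 33.1 and 53.3 CPM. It averaged 39.2 ± 12.2 (SD, n = 3), and 32.2 without replicate 3. In both genes replicate 3 was the highest library, by 1.26-fold over replicate 1 in Gas5 and by 1.70-fold in Snhg1.

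Snhg6, host of Snord87 at chr1:9941959-9944118 on the minus strand, had 20.99, 22.7 and 27.3 CPM, a mean of 23.7 ± 3.27 (SD, n = 3) and 21.8 without replicate 3. Snhg5, host of Snord50a and Snord50b at chr9:88521050-88522929 on the minus strand, had 16.9, 15.7 and 31.6 CPM. It averaged 21.4 ± 8.85 (SD, n = 3), and 16.3 without replicate 3, which was 2.02-fold above replicate 2. Snhg8, host of Snora24 at chr3:123507552-123508404 on the minus strand, had 19.96, 17.01 and 19.6 CPM, a mean of 18.9 ± 1.62 (SD, n = 3). It was the one gene of the 9 that was not highest in replicate 3.

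Snhg12 and Snhg3 lie on chromosome 4, 36990 bases apart and on opposite strands. Snhg12, at chr4:132308623-132311024 on the plus strand, hosts 4 loci and had 11.8, 12.4 and 13.1 CPM, the narrowest spread of the 9 (coefficient of variation 5.42%). Snhg3, at chr4:132348014-132353686 on the minus strand, hosts Snora73a and Snora73b and had 6.41, 6.80 and 11.5 CPM, a mean of 8.23 ± 2.83 (SD, n = 3) and 6.60 without replicate 3. Replicate 3 was 1.11-fold above replicate 1 in Snhg12 and 1.79-fold in Snhg3; the difference between the neighbours was not tested. Snhg3 shares 135 exonic bases with Rcc1, a chromatin-bound exchange factor gene on the same strand that had 48.6, 46.7 and 96.7 CPM, and 705 bases with the antisense gene Gm17300. Gm17300 has no line among the genes analysed here. Snhg6 shares 127 bases with Mcmdc2 on the opposite strand. How reads in these shared bases were counted is not given in the sources used here, so the levels of Snhg3 and Snhg6 are uncertain to that extent. The same limit applies to hosts that share exonic bases with snoRNAs that have their own line. These are 126 bases in Snhg1 (Snord22), 130 in Snhg8 (Snora24) and 77 in Gas5 (Snord47). In Snhg12 they are 137 (Snora16a), 129 (Snora44), 130 (Snora61) and 74 (Snord99).

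Levels of different genes can be compared only per length, and for these genes the length is itself uncertain. Over all annotated exons Gas5 measures 3760 bases and Snhg1 2969, but 851 and 865 bases when transcripts annotated as retaining introns are left out. Neat1 has a transcript of 20771 bases and a short one of 3004, and counts per gene do not separate them. Over all annotated exons, CPM per kilobase averaged 26.6 ± 3.46 for Gas5, 22.1 ± 1.90 for Snhg8, 21.7 ± 12.4 for Malat1 and 20.6 ± 2.86 for Snhg6 (SD, n = 3 each). Snhg1 followed at 13.2 ± 4.103, Snhg5 at 12.4 ± 5.12, Neat1 at 8.58 ± 1.78, Snhg3 at 8.35 ± 2.87 and Snhg12 at 5.17 ± 0.280 (SD, n = 3 each). The median of all detected genes was 7.57 CPM per kilobase, and 8 of the 9 lay above it. Without replicate 3 that median was 7.23 and 7 of the 9 lay above it.

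Without the retained-intron transcripts Gas5 was at 117 ± 15.3 CPM per kilobase and Snhg1 at 45.4 ± 14.1 (SD, n = 3 each), the highest means of the 9 while Neat1 is taken at its long transcript. No transcript of Snhg3, Snhg6 or Snhg12 is annotated as retaining introns, so their lengths stayed at 986, 1146 and 2402 bases. The exons of Snhg12 cover its whole span, snoRNAs included, so this order depends partly on annotation labels. At the length of its short transcript, Neat1 was at 59.3 ± 12.3 CPM per kilobase (SD, n = 3) instead of 8.58, above Snhg1 and below Gas5. Malat1 lay 2.33-fold above Neat1 over the long transcript (range over libraries 1.83 to 3.39), and 0.336-fold of it over the short one (0.264, 0.294 and 0.490 in replicates 1, 2 and 3). Both ratios kept their side in all 3 libraries, so which of the 2 nuclear RNAs is higher per base depends on the Neat1 transcript that gave the counts.

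**Figure D2:**
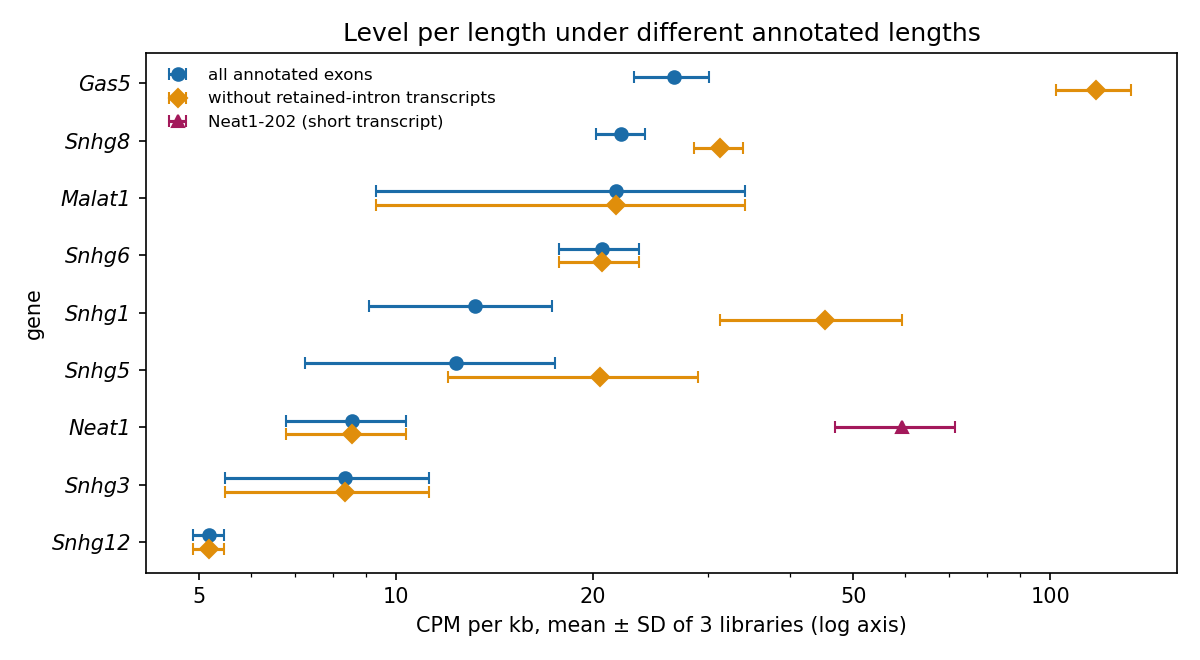
CPM per kilobase of each gene, mean ± SD of 3 libraries on a log axis, over all annotated exons, without retained-intron transcripts, and for Neat1 also over its short transcript. Gas5 moves from 26.6 to 117 and Snhg1 from 13.2 to 45.4 with the choice of exons, and Neat1 from 8.58 to 59.3 with the choice of transcript.

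All 36 pairs of the 9 genes were compared within each library, as the log2 ratio of CPM per kilobase over all annotated exons with 0.5 counts added. A pair was called when the 3 ratios lay on one side of 0 and their mean exceeded 2 SD. This held for 24 of 36 pairs, where it held for 85.6% of all pairs of detected genes. The exact two-sided permutation p was 0.25 at its smallest, the least that 3 libraries allow, and 0.3 after Benjamini-Hochberg adjustment over the 36 pairs.

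Of the 8 pairs of neighbours in the order of levels, 1 was called. Neighbours are by definition close in mean level in these same libraries, so few calls follow partly from how they were picked. In the called pair Snhg6 lay 1.6-fold above Snhg1 (range 1.33 to 1.78), and this turned to 0.466-fold without retained-intron transcripts. Malat1 and its neighbours Snhg8 and Snhg6 changed order between libraries. Snhg8 over Malat1 was 0.76, 0.38 and −0.64 on the log2 scale in replicates 1, 2 and 3, and Malat1 over Snhg6 was −0.41, −0.37 and 0.59. Malat1 had rank 4 of the 9 per kilobase in replicates 1 and 2 and rank 1 in replicate 3. Among the pairs of genes further apart, Gas5 over Neat1 was 3.13-fold (2.87 to 3.303) and Snhg6 over Neat1 2.43-fold (2.24 to 2.62), both called over the long Neat1 transcript. With Neat1 at its short length and without retained-intron transcripts, Snhg6 over Neat1 turned to 0.351-fold, again called, while Gas5 over Neat1 was 1.998-fold. Without any length correction they were 0.134-fold and 0.566-fold. Without replicate 3, 33 of 36 pairs were called.

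Counts of 8 of the 9 genes differed between the 3 libraries beyond counting noise (chi-square test after TMM scaling, adjusted p under 0.05 over 12737 genes), where 65.8% of all tested genes did. Of those 8, 7 were highest in replicate 3; of all tested genes, 32.6% were called and highest there. The adjusted p was 8.87e-110 for Neat1, 2.83e-54 for Snhg1, 2.59e-51 for Snhg5, 1.02e-24 for Gas5, 4.12e-14 for Snhg3, 4.84e-07 for Snhg6 and 0.0211 for Snhg8, and too small to be represented for Malat1. Snhg12 was not called (adjusted p = 0.329). With replicates 1 and 2 alone only Malat1 was called, at 1.11-fold, where 1.89% of genes were.

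Most genes of the line differed between libraries by this test, so the counts were also set against a spread shared by all genes. It was estimated from these same libraries as 1 group. The distance of replicate 3 from the others is thus already part of it, which lowers the number of genes called. This spread is wider than that of most genes: edgeR's own value for Neat1, 0.0287, was at the 62.1st percentile of tested genes. With the common dispersion of all genes from edgeR (0.0294) as the variance, 1 of the 9 was called, Malat1 (adjusted p = 0.00309), where 1.95% of all tested genes were called and 0.832% were called and highest in replicate 3. Snhg5 had an adjusted p of 0.124, Snhg3 of 0.430 and Snhg1 of 0.520. Unadjusted p by this chi-square test was under 0.05 for 4 of the 9, Malat1, Snhg5, Snhg3 and Snhg1. It was under 0.05 for 1085 of the 12737 tested genes. The log2 range between the highest and lowest library was 1.38 for Malat1, 1.01 for Snhg5, 0.84 for Snhg3 and 0.76 for Snhg1, at the 95.6th, 91.4th, 87.8th and 85.4th percentiles of tested genes. Neat1 followed at 0.50, Snhg6 at 0.38, Gas5 at 0.33, Snhg8 at 0.23 and Snhg12 at 0.16, against a median of 0.30 over all tested genes.

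**Figure D3:**
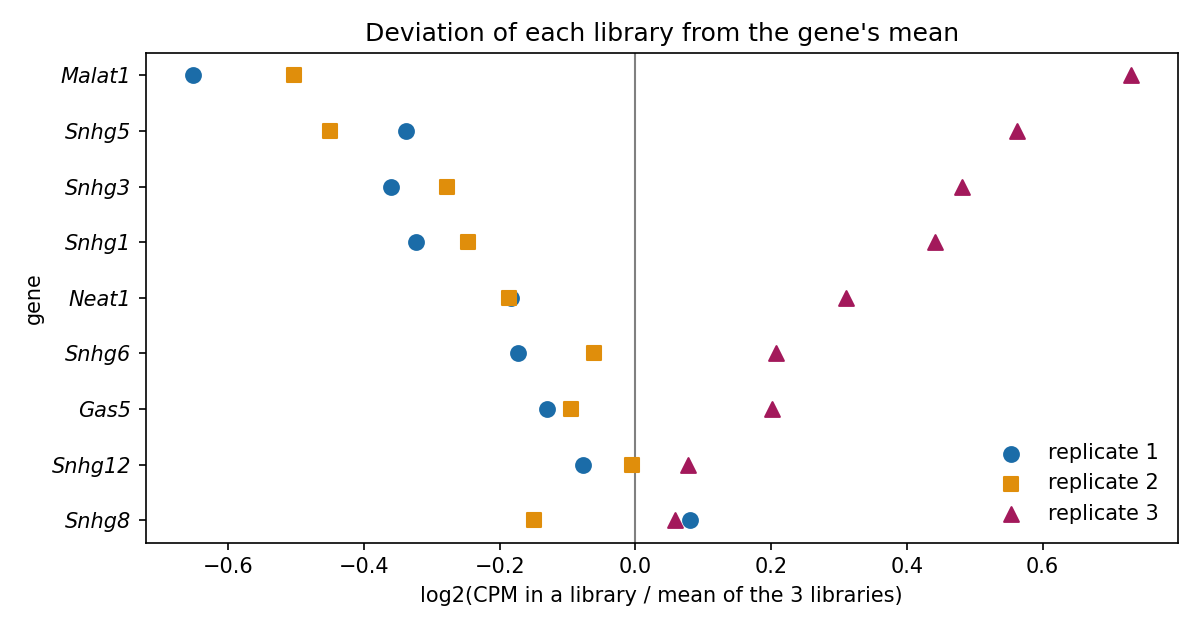
Log2 deviation of every library from the gene's mean CPM, for the 9 genes in the order of their value in replicate 3. Replicate 3 lies at 0.73 for Malat1 and 0.56 for Snhg5, and at 0.08 for Snhg12 and 0.06 for Snhg8, where the libraries lie closest together.

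Patterns over 3 libraries hold little information. Among 9029 other genes at 10 CPM or more, 2 lay within a Euclidean distance of 0.1 of Malat1's log2 deviations: Id2, an inhibitor of basic helix-loop-helix factors, at 0.0157, and Xist, the nuclear RNA that coats the inactive X chromosome, at 0.0385. Xist had 91.9, 104 and 248 CPM and Id2 12.9, 14.2 and 33.0 CPM in replicates 1, 2 and 3. Within that distance lay 668 genes for Neat1, led by Zwilch and 4930427A07Rik, and 1373 for Gas5, led by Stx3 and Pam16. The number was 29 for Snhg5, 101 for Snhg3, 133 for Snhg8, 195 for Snhg1, 854 for Snhg6 and 1862 for Snhg12. Genes whose libraries lie close together share their pattern with more genes, so these numbers are no measure of likeness in function. Among the 9 genes, the closest patterns were those of Gas5 and Snhg6 (0.0545) and of Snhg1 and Snhg3 (0.0625).

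Within the spans of the 7 host genes, on the same strand, lie 27 annotated snoRNA loci, of which the count files list 8. Of these, 7 had at least 10 counts over the 3 libraries. The 4 with sequences shown because most counts fell on them are Snord47 of Gas5, Snord99 and Snora61 of Snhg12, and Snord22 of Snhg1. They are given whole, in DNA letters, from GENCODE M21. Capitals mark the C box core TGATGA and the last CTGA, the D box, in the SNORDs, and the last ACA in Snora61; the letters of the C box core are not in Snord22.
Snord47, chr1:161038082-161038158, plus strand: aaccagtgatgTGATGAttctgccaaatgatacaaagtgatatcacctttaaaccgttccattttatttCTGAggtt
Snord99, chr4:132310691-132310764, plus strand: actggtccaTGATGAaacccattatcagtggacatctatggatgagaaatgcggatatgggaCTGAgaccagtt
Snord22, chr19:8725866-8725991, plus strand: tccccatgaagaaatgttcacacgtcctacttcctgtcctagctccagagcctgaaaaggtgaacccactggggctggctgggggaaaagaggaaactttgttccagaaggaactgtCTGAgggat
Snora61, chr4:132310240-132310369, plus strand: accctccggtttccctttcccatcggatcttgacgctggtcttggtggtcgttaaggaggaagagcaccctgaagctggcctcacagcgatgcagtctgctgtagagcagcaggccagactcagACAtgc

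Snord47 had 13, 13 and 29 counts in replicates 1, 2 and 3, with exact 95% Poisson intervals of 6.92 to 22.2, the same, and 19.4 to 41.6, which cover counting error only. Snord22 had 29, 35 and 70 counts and Snora61 26, 21 and 45. All 3 differed between libraries beyond counting noise (chi-square test, adjusted p = 0.0146, 2e-05 and 0.0115 in that order) and were highest in replicate 3.

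Snord99 had 12, 14 and 20 counts (adjusted p = 0.293) and Snora16a 10, 11 and 11 (adjusted p = 0.805). Snora44 had 5, 5 and 11 counts and Snord87 7, 5 and 12, too few to be tested. Snora24 of Snhg8 had 0 counts in every library, with an exact 95% Poisson interval that reaches 3.69 counts. Snora61 differed between libraries while its host Snhg12 did not pass the test; the difference between them was not tested. These counts are small, between 0% and 7.60% of the host's own counts over the 3 libraries, and 7 of the 8 listed snoRNAs lie wholly within annotated exons of host transcripts, so a read there need not come from a mature snoRNA.

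**Figure D4:**
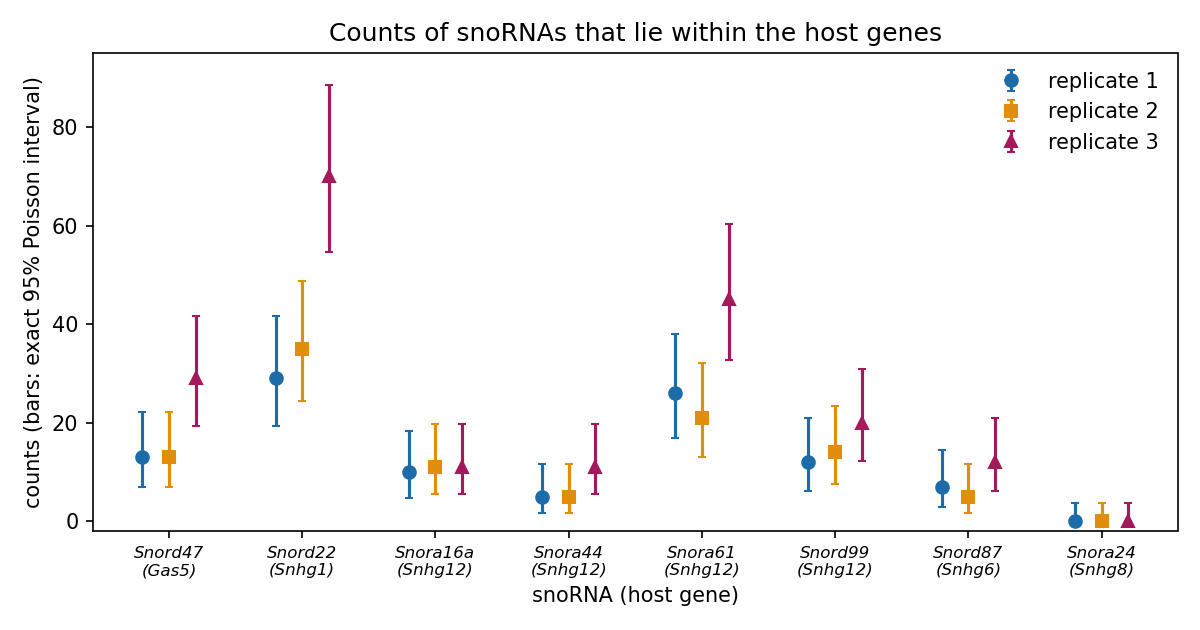
Counts of the 8 listed snoRNAs that lie within host genes in each library, with exact 95% Poisson intervals that cover counting error only. Snord22 reaches 70 counts in replicate 3 and 29 and 35 in the others, Snora61 45 and 26 and 21, and Snora24 is at 0 in all.

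Across all 129 snoRNA and scaRNA lines, counts summed to 1155, 991 and 1633, or 32.1, 34.2 and 50.04 CPM in replicates 1, 2 and 3. Of the 32 lines with enough counts to test, 13 were called, a smaller share than the 65.8% of all tested genes. All 129 lines together were near the 35.9 CPM of the median detected gene, and low counts leave the test less able to call. The shares are therefore not comparable. In replicate 3, 24 of the 32 were highest, where 44.7% of all tested genes were.

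Other snoRNA host RNAs were also present. Of 14 further noncoding hosts, 10 were detected and 1 was split between libraries, and the median of the 12 with a length was 2.07 CPM per kilobase, against 0.227 over all genes. Epb41l4aos (7.90 ± 1.21 CPM), Snhg18 (27.1 ± 7.91) and Zfas1 (32.7 ± 4.71), the last a host of box C/D snoRNAs, led them per kilobase (SD, n = 3 each). Snhg9, Snhg11 and Snhg14 lay below 1 CPM in every library. Of 13 tested, 10 were called, where 65.8% of all tested genes were. Of all tested genes 32.6% were called and highest in replicate 3, and 9 of the 13 were. Snhg18 went the other way, with 1107, 946 and 590 counts. With the edgeR common dispersion 0 of the 13 were called, and 1 had an unadjusted p under 0.05. Over all tested genes 1.95% were called that way, and 1085 of 12737 had an unadjusted p under 0.05.

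Other nuclear or regulatory long noncoding RNAs showed no common direction. Of 15, 9 were detected, and of 11 tested 8 were called, 4 highest and 4 lowest in replicate 3. Over all tested genes 65.8% were called, 32.6% called and highest and 32% called and lowest there. Norad, a cytoplasmic RNA that binds Pumilio proteins, had 283 ± 19.5 CPM and Tug1, a regulator of chromatin and transcription, 121 ± 5.33 (SD, n = 3 each). With H19 they were the highest of the list per kilobase. With the common dispersion 3 were called, where 1.95% of all tested genes were. Xist and Kcnq1ot1, an imprinted antisense RNA (1.89, 2.79 and 6.50 CPM), were highest in replicate 3. H19, an imprinted RNA with 1354, 991 and 88 counts, was lowest there. The other 6 of the 15 lay below 1 CPM in every library.

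Genes for the proteins that work with these RNAs were nearly all detected as RNA, and protein was not measured. All 13 box C/D and box H/ACA snoRNP genes were detected, with a median of 38.1 CPM per kilobase. Ruvbl1 (115 ± 7.70 CPM) and Snu13 (164 ± 21.2), assembly factor and core protein, and the H/ACA protein Nhp2 (66.02 ± 20.1) led them per kilobase (SD, n = 3 each). Of the 13, 12 were called between libraries and all 12 were highest in replicate 3; Nop10 was not called. All 15 genes for paraspeckle proteins were detected, with a median of 29.1 CPM per kilobase. They were led by Nono (572 ± 31.6 CPM), Hnrnpk (814 ± 8.60) and Sfpq (290.4 ± 0.899) (SD, n = 3 each). Nono and Sfpq are the core pair that binds Neat1. Of the 15, 9 were called and 7 of those were highest in replicate 3. Over all tested genes 65.8% were called, and 32.6% were called and highest there.

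All 12 genes for nuclear speckle proteins and Malat1 partners were detected. Srsf2 (228 ± 38.8 CPM), Hnrnpc (307 ± 11.5) and Srsf1 (375 ± 65.8) led them per kilobase (SD, n = 3 each). All 12 were called and highest in replicate 3. Over all tested genes 65.8% were called, and 32.6% were called and highest there. High counts let this test call small differences: Sf3b1 was called with replicate 3 at 1.03-fold of replicate 1 and 1.05-fold of replicate 2. Of 11 genes for RNase P and the tRNA 3′ processing enzyme Elac2, 10 were detected and Rpp25 was below 1 CPM in every library; Pop1 (86.4 ± 9.95 CPM) was the highest per kilobase, followed by Pop7 and Pop4. Of 10 tested, 8 were called, all highest in replicate 3. All 16 genes for nonsense-mediated decay factors were detected. Eif4a3 (136 ± 12.2 CPM), Magoh (42.5 ± 1.63) and Upf1 (126 ± 20.6) led them per kilobase (SD, n = 3 each). Of the 16, 8 were called, 7 of them highest in replicate 3. With the edgeR common dispersion 0 genes of these 5 lists were called, where 1.95% of all tested genes were. Unadjusted p by that test was under 0.05 for 3 snoRNP genes, 1 gene of the RNase P and Elac2 list and 1 decay factor. It was under 0.05 for 0 of the paraspeckle and speckle genes, and for 1085 of all 12737 tested genes. The lists' median log2 deviations in replicate 3 lay between 0.02 and 0.20, against −0.01 for all tested genes.

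Ribosomal protein mRNAs, the best-known TOP mRNAs, had a median deviation of the opposite sign in replicate 3. Of 76 tested, 70 were called, 66 of them lowest and 4 highest in replicate 3, where 32% of all tested genes were called and lowest there. With the edgeR common dispersion 0 of the 76 were called, and 2 had an unadjusted p under 0.05. Their median deviation there was −0.10 on the log2 scale, against 0.31 for the 9 genes. Rplp1 (971 ± 8.39 CPM), Rplp0 and Rps2 led them per kilobase, and the median of the list was 286 CPM per kilobase. Their near-identical copies make single values uncertain; Rpl26 had 0 counts and Rpl30 6, 6 and 18. Of 259 protein-coding genes with a snoRNA in an intron, 220 were detected and 183 of 229 tested were called, 108 highest and 73 lowest in replicate 3. With the common dispersion from edgeR 0 of the 229 were called, and 13 had an unadjusted p under 0.05. Of 29 long noncoding genes with one, a set that includes members of the 9, 15 of 23 tested were called, 12 highest and 2 lowest, and 1 was called with the common dispersion. These counts stand beside 65.8% of all tested genes called, 32.6% called and highest and 32% called and lowest in replicate 3. With the common dispersion, 1.95% of all tested genes were called, and 1085 of 12737 had an unadjusted p under 0.05.

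**Figure D5:**
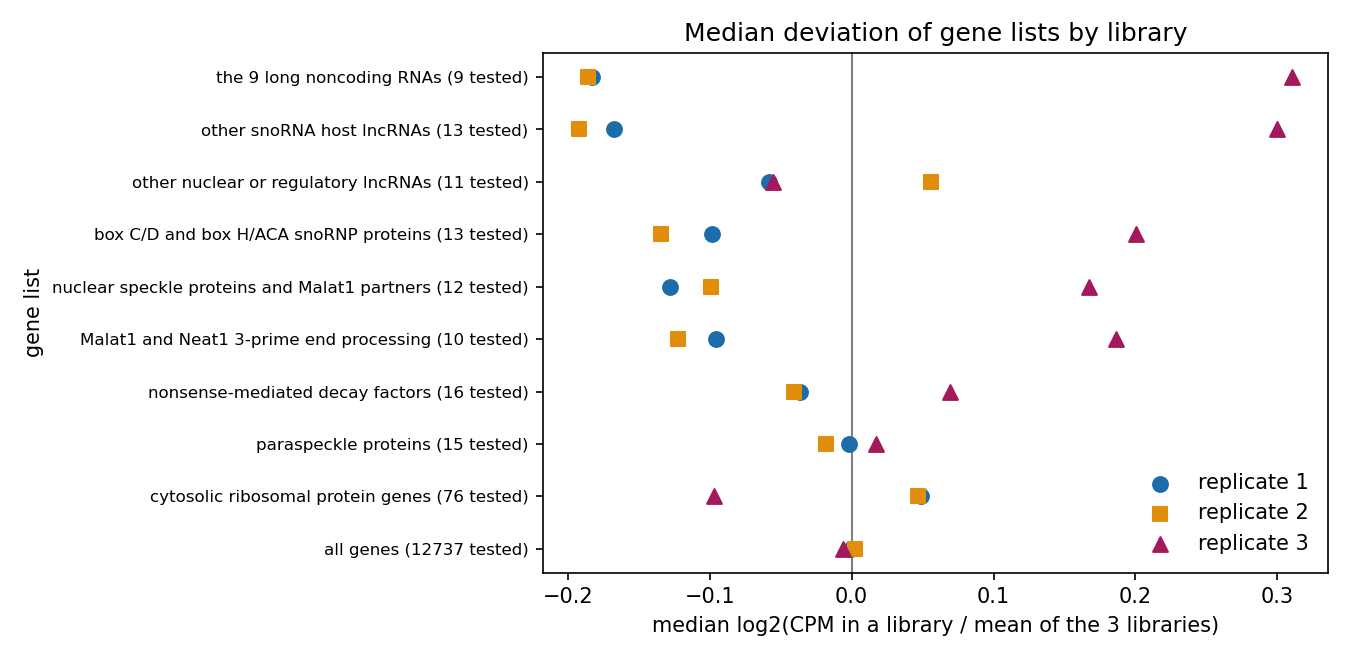
Each library's median log2 deviation from a gene's mean CPM, for each gene list, with the number of genes tested in brackets. In replicate 3 the 9 long noncoding RNAs lie at 0.31 and the other noncoding snoRNA hosts at 0.30, while cytosolic ribosomal protein genes lie at −0.10 and all tested genes at −0.01.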

How the data were processed

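The authors deposited raw counts per gene symbol, 1 table per library and 5 closing lines of unassigned reads, which were left out of library sizes. Reads assigned to no annotated feature were 5.19%, 5.27% and 6.54% of all lines' counts in replicates 1, 2 and 3. Per the submitters' processing notes, Bowtie2 2.2.4, HTSeq and mm10 were used; strand, annotation and options are not given in the sources used here, and the labels do not say whether polyadenylated RNA was selected, so its bearing on Malat1 and Neat1 was not tested. Symbols were matched to GENCODE M21 on GRCm38, the assembly mm10 names (23350 directly, 650 by synonym, 421 not matched).

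CPM is counts per 1000000 counts assigned to genes. CPM per kilobase divides by the exon length annotated in GENCODE M21, which may differ from the exons in which reads were counted. A chi-square test, for genes averaging 10 counts or more, was made of the 3 counts after TMM scaling (edgeR 4.0.16), Benjamini-Hochberg adjusted at 0.05. It compares libraries and not conditions. DESeq2 1.42.0 gave alternative size factors (R 4.3.3, Python 3.11.15, scipy 1.17.1). With 1 group, no test between conditions was possible. Companion genes are named by a rule: the 3 highest per kilobase of each list, the members below detection where fewer than 4 are, hosted snoRNAs with 10 counts or more, and the 2 closest patterns to Malat1, Neat1 and Gas5 among genes at 10 CPM or more; Kcnq1ot1 and Nop10 were named after their values were seen. The genes, lists and alternatives were chosen with earlier results of these data known.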

Additional observations from a re-analysis of the deposited data

How the results depend on the processing

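All 9 genes stayed detected at 0.5 and 5 CPM, with the unassigned reads in the library size and without any 1 library. Their summed level was 553.5 CPM, and 458 to 604 CPM without 1 library. The number of genes that varied between libraries was 8 with TMM, DESeq2 size factors, total counts and no filter. It was 1 with the common dispersion of all genes, which allows a wider spread by construction, and 1 to 8 without 1 library. The lowest value, 1, came without replicate 3. Snhg8 lost its call without replicate 2 (chi-square test, adjusted p = 0.821) and without replicate 3 (0.151). The called pairs numbered 22 to 29 over other lengths, pseudocounts and with replicates 1 and 2 averaged, and 23 to 33 without 1 library. The sign of the ratio turned in 3 of the 36 pairs with the longest transcript, 3 without retained-intron transcripts, 8 with the short Neat1 transcript as well, 14 without length correction and 4 without replicate 1. Among neighbours in the order, Neat1 over Snhg3 was −0.69 on the log2 scale with the longest transcript, and Snhg1 over Snhg5 −0.25. Without length correction the log2 ratio was −2.87 for Snhg8 over Malat1, 2.55 for Malat1 over Snhg6, −0.70 for Snhg6 over Snhg1, −3.11 for Snhg5 over Neat1 and −0.64 for Snhg3 over Snhg12. Without retained-intron transcripts Snhg6 over Snhg1 was −1.10, also with Neat1 at its short length, where Snhg5 over Neat1 was −1.59. With replicates 1 and 2 averaged Snhg8 over Malat1 was −0.036 and Malat1 over Snhg6 0.10. Over the settings that leave out 1 library, Snhg8 over Malat1 ran from −0.13 to 0.57, Malat1 over Snhg6 from −0.39 to 0.11, and Neat1 over Snhg3 from −0.0040 to 0.17. The cause of these turns was not tested beyond what each setting's construction shows. The settings without retained-intron transcripts, with the short Neat1 transcript, with averaged replicates and with the common dispersion were chosen after seeing the data. No paired analysis was possible because the labels give 1 group only.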
